A study of Mus musculus with 12 samples.

Results

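The 10 genes that encode feedback inhibitors and transcription factors of the ERK pathway were followed across 12 microarrays of MIN6 cells: Dusp4, Dusp5, Dusp6, Spry1, Spry2, Spry4, Spred1, Spred2, Etv4 and Etv5. They were found by gene symbol in the platform annotation. All 10 were measured, among 19938 genes on the array with a symbol of their own. A gene with several probe sets was represented by its brightest one. The set was chosen by someone who knew measured values of these arrays, and which comparison weighed in the choice is not recorded. The differences between culture conditions are treated as if the genes had been selected on them, and are given as a description. Nothing is read from the counts of limma calls printed for them.

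MIN6 cells, which secrete insulin, derive from a mouse insulinoma and often stand in for pancreatic beta cells. Cells were transfected with siRNA against Hes3, which encodes a Hes-type transcription factor, or with a scrambled control siRNA, and RNA was taken 12 to 24 hours later. The defined conditions (DC) were serum-free medium at 5% oxygen, with 4 arrays for Hes3 siRNA (numbered 1, 2, 5 and 7) and 4 for scrambled siRNA. The classic conditions (CC) were medium with serum at 20% oxygen, with 2 arrays for each siRNA. Serum and oxygen changed together, so their parts in a difference between DC and CC cannot be told apart. Per the labels, all samples came from a single experiment with 1 cell line, so p-values speak only to how far these samples vary, and that variation may be technical.

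The ERK pathway carries signals from growth factor receptors through Ras and the kinases Raf, MEK and ERK to the nucleus. Active ERK switches on genes whose products damp the same pathway: Dusp phosphatases remove phosphate from ERK, and Sprouty and Spred proteins restrain Ras and Raf. The same signal switches on Etv4 and Etv5, Ets transcription factors of the PEA3 family. Because their transcripts follow pathway activity, these genes are widely read as markers of ERK output, although mRNA levels do not measure ERK phosphorylation. In beta cells the pathway responds to serum growth factors and to glucose.

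Promoter windows of 300 bases, 250 before and 50 after the gene start, were taken from RefSeq (GRCm38.p6) for 7 of the 10 genes (not for Dusp4, Spry4 and Etv4), and 4 of them are shown because they belong to the genes with the largest differences between the culture conditions and to 1 gene, Spry1, without one. Dusp6 lies at chr10:99262981-99263280 on the plus strand, the Etv5 window at chr16:22438319-22438618 on the minus strand, Dusp5 at chr19:53528895-53529194 on the plus strand and Spry1 at chr3:37639697-37639996 on the plus strand. Each is written 5′ to 3′ on the strand of its gene, and capitals mark TGAATG on either strand. TGAATG is a form of the core of sites bound by the repressor Capicua in flies and in human cells. Other forms of that core were not searched or marked, so windows without capitals may still hold them.
Dusp6: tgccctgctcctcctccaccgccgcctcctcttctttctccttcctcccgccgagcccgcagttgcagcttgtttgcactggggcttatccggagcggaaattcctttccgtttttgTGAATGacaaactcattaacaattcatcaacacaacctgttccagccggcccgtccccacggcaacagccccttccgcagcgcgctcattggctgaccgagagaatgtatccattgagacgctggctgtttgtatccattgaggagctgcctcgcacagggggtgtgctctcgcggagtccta
Etv5: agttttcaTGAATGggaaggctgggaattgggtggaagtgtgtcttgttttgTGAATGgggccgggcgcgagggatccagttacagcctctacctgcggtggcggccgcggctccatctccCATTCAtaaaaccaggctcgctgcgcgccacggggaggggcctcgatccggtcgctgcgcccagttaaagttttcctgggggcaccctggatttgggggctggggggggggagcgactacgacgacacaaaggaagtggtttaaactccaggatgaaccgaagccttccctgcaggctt
Dusp5: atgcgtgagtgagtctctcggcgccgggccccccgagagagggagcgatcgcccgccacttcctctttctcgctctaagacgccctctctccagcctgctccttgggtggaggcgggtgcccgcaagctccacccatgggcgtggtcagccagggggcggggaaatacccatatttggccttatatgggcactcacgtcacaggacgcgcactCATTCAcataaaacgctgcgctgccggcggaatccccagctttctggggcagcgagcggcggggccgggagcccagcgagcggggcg
Spry1: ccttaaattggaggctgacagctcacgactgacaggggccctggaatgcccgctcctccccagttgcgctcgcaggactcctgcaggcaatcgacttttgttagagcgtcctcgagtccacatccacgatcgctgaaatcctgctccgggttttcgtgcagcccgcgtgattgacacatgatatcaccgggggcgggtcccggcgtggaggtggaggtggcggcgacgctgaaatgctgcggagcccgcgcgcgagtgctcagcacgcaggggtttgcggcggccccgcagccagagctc

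TGAATG stood once in the Dusp6 window, 133 bases before the start, once in the Dusp5 window, 37 bases before it, and 3 times in this Etv5 window, 242, 198 and 129 bases before it. It was in no window of Spry1, Spry2, Spred1 or Spred2, nor in a second Etv5 window farther upstream. Of all 32851 windows searched, 12.7% held it. In all, 5 motifs were searched on both strands, with no regard to overlap between them, and they were picked with the values of these genes known. CCGGAA, an Ets core, was in Spry2 (14.9% of all windows). TGACG, a core of the cAMP response element, was in Dusp5 and Spred2 (20.8%). The CArG box of serum response factor stood at 2 places in Dusp5 (1.63%), and TGANTCA, the AP-1 site, was in none of the 7 genes (7.81%). A match is a run of letters and not a measured binding site.

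Signals are on the deposited log2 scale, on which a difference of 1 is a doubling, and differences were estimated with limma over all 12 arrays. Signal of the siRNA target, Hes3, was no lower where the label was Hes3 siRNA. It stood at 7.37, 7.36, 7.38 and 7.25 in DC arrays 1, 2, 5 and 7 labelled Hes3 siRNA, against 7.10, 7.24, 7.19 and 7.22 in DC scrambled arrays 1 to 4, and at 7.22 and 7.23 against 7.23 and 6.82 in CC. Its difference was 0.15 ± 0.0767 on the log2 scale in DC (SE; limma adjusted p = 0.114), with every array labelled Hes3 siRNA above every scrambled array, and 0.20 ± 0.109 in CC (adjusted p = 1). Leaving out either CC scrambled array put the DC value past the threshold (0.15, adjusted p = 0.0386). Hes3 was dim, at percentile 29.8 of mean signal. Genes in the same 25% band of mean signal had a median difference of 0.206 in DC and 0.043 in CC. The Hes3 signal thus does not settle whether Hes3 mRNA was lowered. Groups are therefore named by their labels, and no direction below is read as an effect of less Hes3 mRNA. Of 16 measured beta cell markers, 14 lay in the brightest 25% of genes by mean signal. Marker lists of acinar, duct and fibroblast cells and of macrophages and endothelium had 0 genes there, while 3 of 5 alpha and delta cell markers, Gcg, Ttr and Sst, did. DC arrays 1 and 5 labelled Hes3 siRNA were the highest on the first principal component, at 34.8 and 29.2. Arrays 2 and 7 of that group stood at 15.6 and 12.8, and the DC scrambled arrays at -9.29 to 1.61. CC arrays 1 and 2 stood at -17.46 and -19.25 with Hes3 siRNA. With scrambled siRNA they were far apart, at -7.96 and -32.75.

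**Figure D1:**
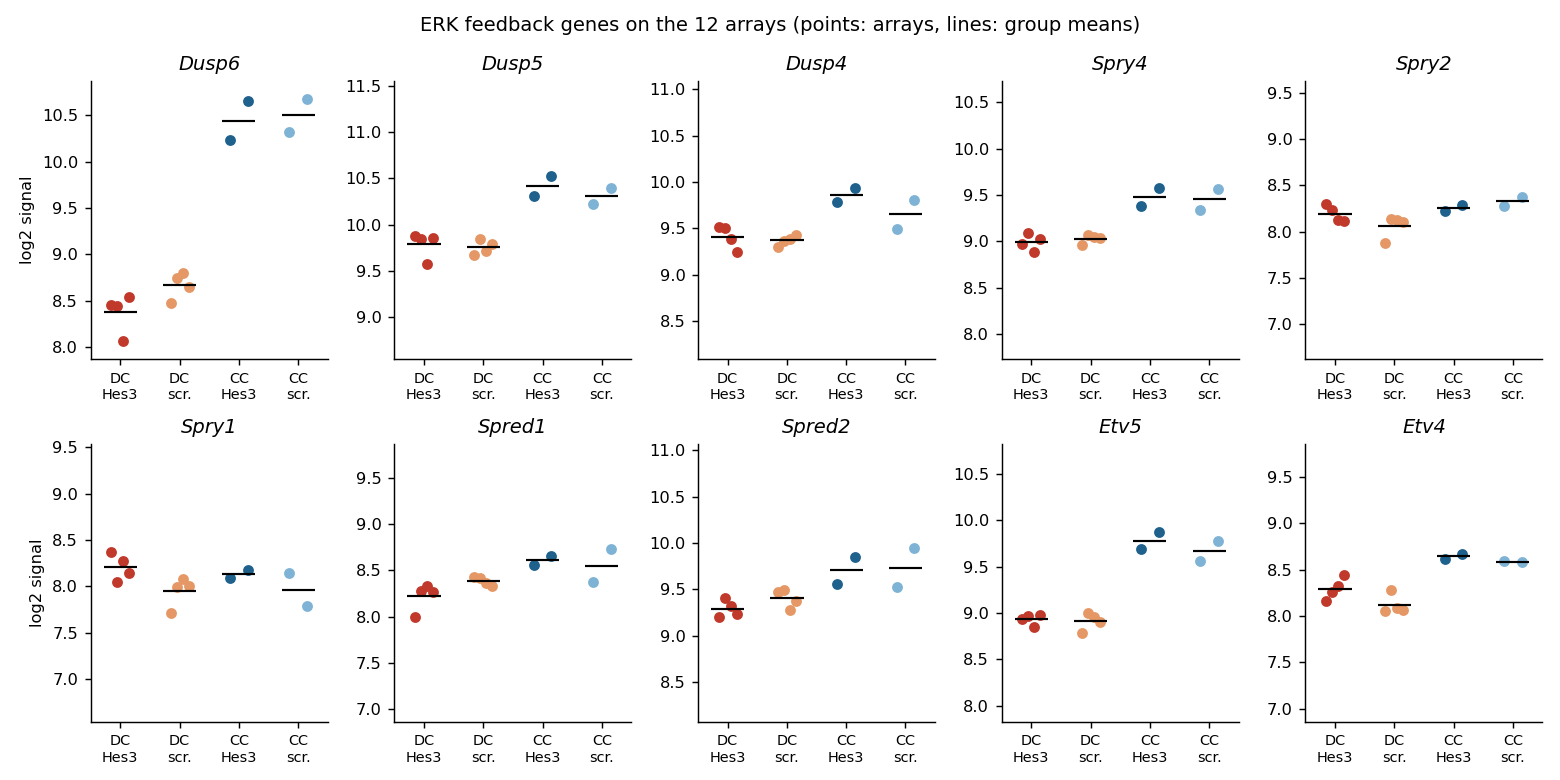
Log2 signal of the 10 genes on every array, with groups along the horizontal axis (scr., scrambled siRNA), points for arrays and lines for group means; every panel spans the same range of log2 units. Dusp6 lies between 8.06 and 8.80 on the 8 DC arrays and between 10.23 and 10.68 on the 4 CC arrays, and Spry1 overlaps across the cultures.

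Among the phosphatases, Dusp6, which acts on ERK in the cytoplasm, showed the largest difference between the culture conditions of the 10 genes. Dusp6 stood at 8.45, 8.44, 8.06 and 8.54 in DC arrays 1, 2, 5 and 7 with Hes3 siRNA, against 10.23 and 10.65 in the CC arrays with Hes3 siRNA. With scrambled siRNA it stood at 8.48, 8.74, 8.80 and 8.65 in DC and at 10.32 and 10.68 in CC. All 8 DC arrays were far below all 4 CC arrays. The log2 fold change of DC against CC was -2.07 ± 0.143 with Hes3 siRNA and -1.84 ± 0.143 with scrambled siRNA (SE), or 4.19-fold and 3.57-fold lower. By size of change in either direction, Dusp6 ranked 5 of all 19938 genes with Hes3 siRNA and 4 with scrambled siRNA.

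Dusp5, the phosphatase of ERK in the nucleus, was lower in DC by a smaller amount. It stood at 9.88, 9.84, 9.58 and 9.86 in DC with Hes3 siRNA against 10.31 and 10.52 in CC, and at 9.67, 9.84, 9.72 and 9.79 in DC with scrambled siRNA against 10.22 and 10.40 in CC. The cultures did not overlap under either siRNA. The log2 fold changes were -0.63 ± 0.0963 with Hes3 siRNA and -0.55 ± 0.0963 with scrambled siRNA (SE). Dusp4, a nuclear phosphatase that also acts on JNK and p38, was at 9.24 to 9.52 in DC against 9.78 and 9.94 in CC with Hes3 siRNA, and at 9.30 to 9.43 in DC against 9.49 and 9.81 in CC with scrambled siRNA. Its log2 fold changes were -0.45 ± 0.0988 and -0.28 ± 0.0988 (SE).

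The Ets factors were lower in DC too, Etv5 by more than Etv4. Etv5 stood at 8.93, 8.97, 8.85 and 8.98 in DC with Hes3 siRNA against 9.69 and 9.87 in CC, and at 8.78, 9.0, 8.95 and 8.90 in DC with scrambled siRNA against 9.56 and 9.77 in CC. Its log2 fold changes were -0.85 ± 0.0848 with Hes3 siRNA and -0.75 ± 0.0848 with scrambled siRNA (SE), or 1.80-fold and 1.69-fold lower. The annotation gives Etv5 to 2 probe sets, and no probe coordinates were at hand. Probe set numbers of the other members follow chromosome order (10, 11, 14, 18, 19, 2, 3, 8). By it, the second, dimmer Etv5 probe set falls between Spry2 (chromosome 14) and Spry4 (18), where Etv5 (16) belongs. The brighter one falls before Dusp6 on chromosome 10, so it may lie outside the gene. Each Etv5 value here holds for the brighter probe set only. The second gave culture differences of -0.91 and -0.74. Etv4 stood at 8.16 to 8.44 in DC against 8.62 and 8.67 in CC with Hes3 siRNA (-0.35 ± 0.0849), and at 8.05 to 8.28 in DC against 8.59 and 8.58 in CC with scrambled siRNA (-0.46 ± 0.0849). No DC array reached a CC array for either factor.

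The 3 Sprouty genes did not share a pattern. Spry4, an inhibitor of Ras signalling below growth factor receptors, stood at 8.88 to 9.09 in DC against 9.38 and 9.58 in CC with Hes3 siRNA, and at 8.96 to 9.07 in DC against 9.34 and 9.57 in CC with scrambled siRNA. Its log2 fold changes were -0.49 ± 0.0864 and -0.42 ± 0.0864 (SE). Spry2 stood at 8.11 to 8.30 in DC with Hes3 siRNA, which overlapped 8.22 and 8.29 in CC (-0.06 ± 0.0849), while with scrambled siRNA it stood at 7.88 to 8.14 in DC, below 8.28 and 8.37 in CC (-0.27 ± 0.0849). Spry1 overlapped under both siRNAs. It stood at 8.37, 8.05, 8.27 and 8.14 in DC with Hes3 siRNA against 8.09 and 8.18 in CC (0.07 ± 0.115), and at 7.71, 7.99, 8.08 and 8.01 in DC with scrambled siRNA against 8.14 and 7.79 in CC (-0.02 ± 0.115). Spry1 and Spry2 were thus the 2 members whose cultures overlapped with Hes3 siRNA.

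The Spred proteins sit at the membrane and bring neurofibromin, which switches Ras off, to Ras. Spred2 stood at 9.20 to 9.40 in DC against 9.56 and 9.85 in CC with Hes3 siRNA (-0.42 ± 0.111), and at 9.28 to 9.49 in DC against 9.52 and 9.94 in CC with scrambled siRNA (-0.33 ± 0.111). A second, dimmer Spred2 probe set gave larger differences, -0.72 and -0.48. Spred1 stood at 8.0 to 8.33 in DC against 8.56 and 8.65 in CC with Hes3 siRNA (-0.38 ± 0.103). With scrambled siRNA it stood at 8.33 to 8.43 in DC, which overlapped 8.37 and 8.73 in CC (-0.16 ± 0.103).

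**Figure D2:**
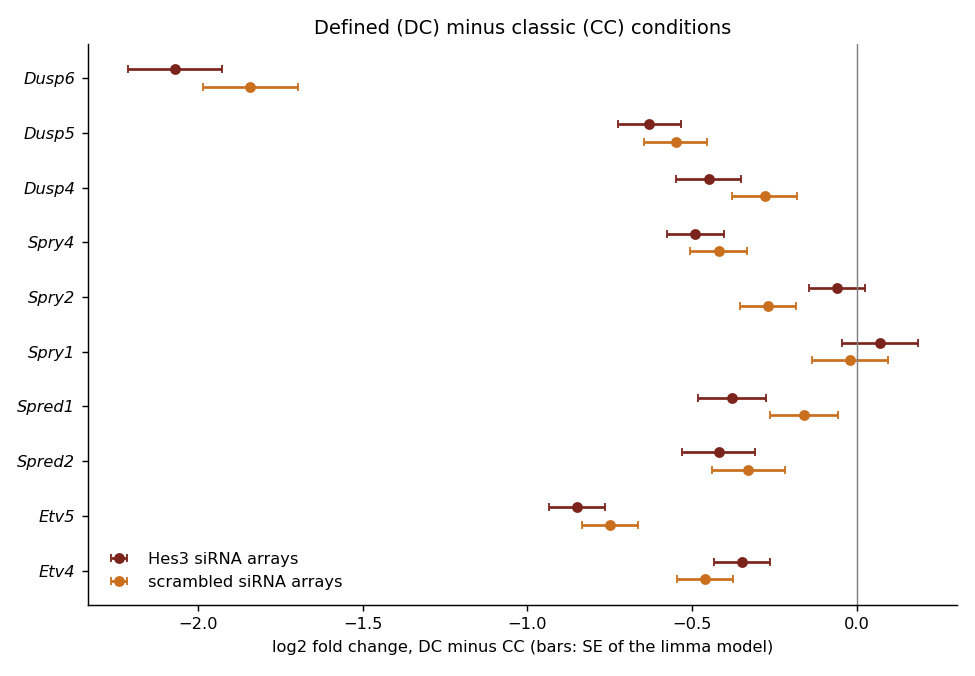
Log2 fold change of DC against CC (horizontal axis) for each gene, with arrays of Hes3 siRNA above and of scrambled siRNA below in each row; bars are the SE of the limma model. Dusp6 lies at -2.07 and -1.84, Etv5 at -0.85 and -0.75, and Spry1 next to 0.

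Set side by side, the log2 fold changes of DC against CC under scrambled siRNA ran from Dusp6 (-1.84) through Etv5 (-0.75) and Dusp5 (-0.55) to Etv4 (-0.46), Spry4 (-0.42), Spred2 (-0.33), Dusp4 (-0.28), Spry2 (-0.27), Spred1 (-0.16) and Spry1 (-0.02). Dusp6 and Etv5 were apart from their neighbours in this order by more than the SE. From Dusp5 down to Spry2, each neighbouring pair differed by less than 0.10, about the size of their SEs. The median over the 10 genes was -0.436 with Hes3 siRNA and -0.377 with scrambled siRNA, beside medians over all genes of 0.091 and 0.019 and over the brightest 25% of genes of -0.192 and -0.039. With Hes3 siRNA, 8 of 10 had a limma adjusted p under 0.05 and lower values, as had 18.8% of all genes, and the arrays of 8 did not overlap (lower in 23.4% of all genes). With scrambled siRNA the counts were 5 of 10 beside 5.45% of all genes, and 8 of 10 not overlapping beside 14.1%. Since these differences may have entered the choice of genes, nothing is read from the counts. The arrays behind the culture differences of each siRNA are separate, yet from the same experiment. The alpha cell gene Gcg and Ttr, a further islet marker, moved with culture too. Gcg fell by 1.05 and 0.93 and Ttr by 0.69 and 0.81 with Hes3 and with scrambled siRNA. Of 5 alpha and delta cell markers, 2 fell and 2 rose with Hes3 siRNA, and 2 fell and 0 rose with scrambled siRNA. Of 16 beta cell markers, 2 fell and 3 rose with Hes3 siRNA, and 0 fell and 2 rose with scrambled siRNA. With Hes3 siRNA 3 of 6 acinar, 2 of 6 fibroblast and 1 of 3 duct markers rose, beside 21.2% of all genes. Of 8 macrophage and endothelial markers, 3 rose and 1 fell with Hes3 siRNA. With scrambled siRNA 0 markers of these lists rose, and 1 macrophage and endothelial marker fell. Their part in the culture differences was not tested, and in bulk RNA fewer cells of a type and less RNA per cell cannot be told apart.

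Single arrays mattered for the size of these counts. Leaving out CC array 2 labelled Hes3 siRNA left 1 array in that group. The calls of Dusp4 (-0.37), Spred1 (-0.34), Spred2 (-0.28) and Etv4 (-0.33) with Hes3 siRNA were then lost. Far fewer genes over the whole array were called in that fit too, so the loss is not particular to these members. Dropping arrays 1 and 5 of DC with Hes3 siRNA moved Dusp6 to -1.95 and Etv5 to -0.81, and ended the call of Spred2 (-0.39). The sign of the culture difference held under each alternative tried for 7 members. The exceptions were Spry1 under both siRNAs, Spry2 with Hes3 siRNA (0.01 with a replicate block), and Spred1 with scrambled siRNA, which was at 0.02 without CC scrambled array 2.

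The comparison of siRNA labels within DC asked what Hes3 siRNA changed in serum-free medium. Of the 10 genes, 1 passed the test: Spry1 rose in the arrays labelled Hes3 siRNA, beside 47.2% of all genes called in either direction and 28.9% called higher. Spry1 stood at 8.37, 8.05, 8.27 and 8.14 with Hes3 siRNA against 7.71, 7.99, 8.08 and 8.01 with scrambled siRNA, and the groups overlapped. Spry1 gave a log2 fold change of 0.26 ± 0.0941 (SE; limma adjusted p = 0.0358). Genes in the same 25% band of mean signal had a median of 0.206. Without DC arrays 1 and 5 labelled Hes3 siRNA the Spry1 value was 0.15 (adjusted p = 0.358). It was 0.18 with arrays centred on their median (adjusted p = 0.0867), 0.16 after cyclic loess (adjusted p = 0.173), 0.22 after quantile normalization (adjusted p = 0.0675) and 0.18 with array weights (adjusted p = 0.0768). It was 0.18 without DC scrambled array 1 (adjusted p = 0.13), 0.28 without DC scrambled array 4 (adjusted p = 0.053), and 0.20 and 0.24 without array 1 or array 5 labelled Hes3 siRNA (adjusted p = 0.109 and 0.0905). Fibroblast markers moved with it: 5 of 6 rose, and their mean signal ran from 7.98 to 8.14 in the arrays labelled Hes3 siRNA against 7.72 to 7.84 in the scrambled arrays. Acinar markers rose in 5 of 6 cases, with means of 7.20 to 7.43 against 6.99 to 7.14, and duct markers in 3 of 3, with means of 7.93 to 8.11 against 7.65 to 7.80. Of the macrophage and endothelial markers 4 of 8 rose, and of the alpha and delta cell markers 2 of 5. Of 16 beta cell markers 4 fell and 2 rose, with means of 11.36 to 11.44 against 11.46 to 11.51. Over all genes, the dimmest 25% had a median of 0.146 and the brightest 25% one of -0.148. The part of these shifts in the Spry1 result was not tested.

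Dusp6 did not pass the test between the siRNA labels in DC, where it stood at 8.45, 8.44, 8.06 and 8.54 with Hes3 siRNA against 8.48, 8.74, 8.80 and 8.65 with scrambled siRNA. Array 5 was the lowest and the groups overlapped. Dusp6 gave a log2 fold change of -0.29 ± 0.117 (SE; limma adjusted p = 0.0504). Dusp6 passed with arrays centred on their median (-0.37, adjusted p = 0.0316), with only the 8 DC arrays in the fit (-0.29, adjusted p = 0.0278) and with array weights (-0.32, adjusted p = 0.0255). It passed as well with a trended robust variance (adjusted p = 0.0462), without any 1 of the CC arrays (adjusted p = 0.0358 or 0.0421), without DC array 7 labelled Hes3 siRNA (-0.35, adjusted p = 0.0274) and without DC scrambled array 1 (-0.36, adjusted p = 0.0463). Without array 5 labelled Hes3 siRNA it was -0.19 (adjusted p = 0.18), and without arrays 1 and 5 it was -0.17 (adjusted p = 0.347). Dusp6 also did not pass after quantile normalization (-0.29, limma adjusted p = 0.0634), cyclic loess (-0.23, 0.149) or with a replicate block (-0.16, 0.332). Nor did it without array 1 or 2 labelled Hes3 siRNA (-0.32 each, limma adjusted p = 0.068 and 0.0561). Without DC scrambled array 2, 3 or 4 it was -0.27, -0.25 and -0.3 (limma adjusted p = 0.102, 0.127 and 0.0852).

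Etv4 gave 0.17 ± 0.0693 (limma adjusted p = 0.0525), with 8.16, 8.26, 8.32 and 8.44 in DC arrays labelled Hes3 siRNA against 8.05, 8.28, 8.09 and 8.07 in scrambled arrays. It passed without DC scrambled array 2 (0.22, adjusted p = 0.0216), without DC array 1 labelled Hes3 siRNA (0.22, adjusted p = 0.0317) and with array weights (0.20, adjusted p = 0.0183). The other 7 genes ran from -0.16 for Spred1 to 0.14 for Spry2, with limma adjusted p from 0.111 to 0.779. The Etv5 probe sets disagreed in sign, at 0.02 for the one used and -0.14 for the second, so no direction is given for Etv5 in this comparison. The arrays of the labels overlapped in DC for all 10 genes, whereas they did not overlap for 40.9% of all genes. The median over the 10 was 0.028, beside 0.064 over all genes.

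In CC, where 2 arrays stood against 2, none of the 10 genes passed limma, as none of all 19938 genes did (0%), and none of the 10 had an unadjusted p under 0.05, against 415 of all genes. The log2 fold changes of Hes3 siRNA against scrambled siRNA ran from -0.07 for Spry2 to 0.22 ± 0.114 for Dusp4 (SE; adjusted p = 1 for each). Dusp4 stood at 9.78 and 9.94 with Hes3 siRNA against 9.49 and 9.81 with scrambled siRNA. Dusp6, at 10.23 and 10.65 against 10.32 and 10.68, gave -0.06 ± 0.166. The labels did not overlap for 1 member, Etv4, beside 26.9% of all genes.

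**Figure D3:**
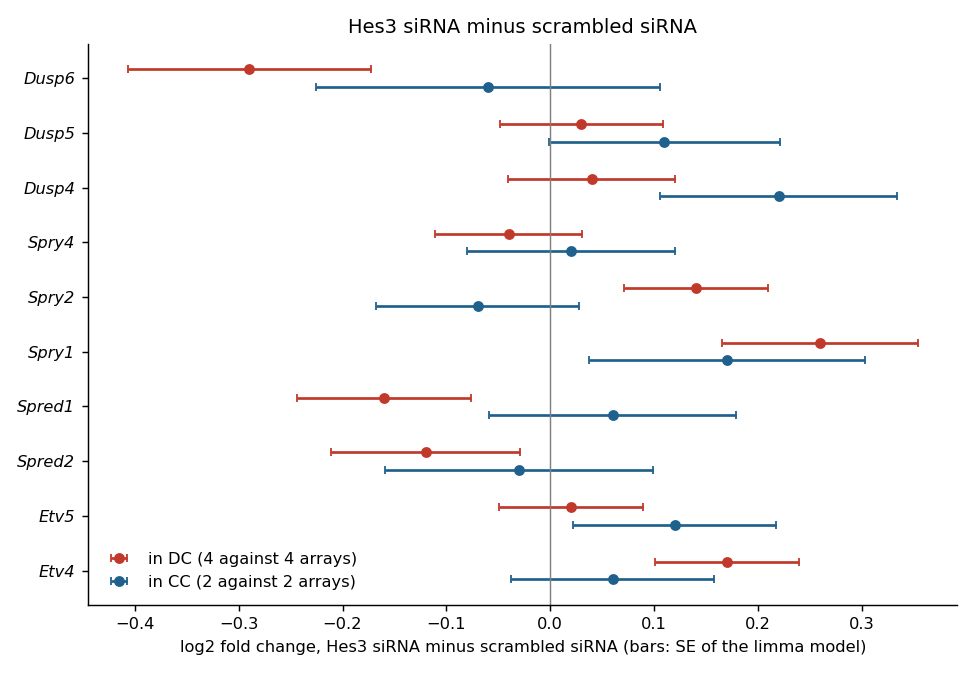
Log2 fold change of Hes3 siRNA against scrambled siRNA (horizontal axis) in DC above and in CC below in each row; bars are the SE of the limma model. All values lie between -0.29 and 0.26, and only Spry1 in DC had a limma adjusted p under 0.05.

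Whether the siRNA difference itself differed between DC and CC was tested by the interaction, which equals the change of the culture difference between the siRNAs. No member passed limma, nor did any gene on the array (0%, although 2056 of all genes and no member passed without CC scrambled array 2), while 3471 of all genes and none of the 10 had an unadjusted p under 0.05. The interaction was largest for Dusp6 at -0.23 ± 0.203 (SE; adjusted p = 0.523), Spred1 at -0.22 ± 0.145 (adjusted p = 0.407) and Spry2 at 0.20 ± 0.120 (adjusted p = 0.365). For Spry2, whose cultures overlapped under Hes3 siRNA and not under scrambled siRNA, the difference between the siRNAs was thus not shown. These p-values do not show that the siRNA effects were equal.

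Other genes of the pathway were taken from a list of 89 textbook entries in 7 groups, of which 80 were measured, written with earlier results of these arrays known. Between DC and CC, 27 fell and 14 rose with Hes3 siRNA, beside 18.8% and 21.2% of all genes (40.1% in either direction), and 14 fell and 8 rose with scrambled siRNA, beside 5.45% and 3.09% (8.54%). The list medians were 0.06 and -0.01 on the log2 scale beside 0.091 and 0.019 for all genes. Fewer of the 80 were called with Hes3 siRNA when either CC array of that siRNA was dropped. The same held with scrambled siRNA without CC scrambled array 2. In each of these fits fewer genes were called over the whole array too. In CC none of the 80 passed limma between the siRNA labels.

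Receptors and ligands gave some of the largest single changes between the cultures. Igf1r, the receptor of insulin-like growth factors, fell by 1.29 ± 0.173 in DC with Hes3 siRNA and fell by 1.39 ± 0.173 with scrambled siRNA (log2, SE; limma adjusted p = 7.75e-05 and 0.000107). The receptor of hepatocyte growth factor, Met, fell by 0.87 ± 0.0929 and 0.52 ± 0.0929 (adjusted p = 1.1e-05 and 0.00184). Hbegf, a ligand of the epidermal growth factor receptor, fell by 0.78 ± 0.0784 and 0.60 ± 0.0784 (adjusted p = 6.24e-06 and 0.000151). Of 12 ligands, 3 fell and 1 rose with Hes3 siRNA and 2 fell with scrambled siRNA. Of 11 receptors, 3 fell and 3 rose with Hes3 siRNA, and 2 fell and 1 rose with scrambled siRNA.

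Genes of the signalling chain between receptor and nucleus moved in both directions. Of 12 adaptor and Ras genes, 5 fell and 2 rose with Hes3 siRNA, and 1 fell and 1 rose with scrambled siRNA. Nf1, which encodes neurofibromin, the Ras inhibitor that Spred proteins recruit, rose by 0.36 ± 0.0818 and 0.37 ± 0.0818 (log2, SE; limma adjusted p = 0.00415 and 0.00816). Of 7 measured kinase genes, 1 fell and 2 rose with Hes3 siRNA, and 2 rose with scrambled siRNA, among them Map2k1, which encodes a MEK kinase, at 0.30 ± 0.0873 (adjusted p = 0.0456). No change of this chain reached the size of the Dusp6 difference.

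Feedback genes outside the 10 were mixed. Of 8 other MAP kinase phosphatases, 3 fell and 3 rose under each siRNA. Dusp1, a nuclear phosphatase of p38, JNK and ERK, fell by 1.22 ± 0.104 with Hes3 siRNA and by 0.86 ± 0.104 with scrambled siRNA (log2, SE; limma adjusted p = 2.07e-06 and 8.17e-05). Dusp7, a cytoplasmic ERK phosphatase akin to Dusp6, fell by 0.56 ± 0.0863 with Hes3 siRNA and by 0.37 ± 0.0863 with scrambled siRNA (adjusted p = 0.000251 and 0.0122). Dusp2, a nuclear ERK phosphatase, rose by 0.33 ± 0.0939 with Hes3 siRNA (adjusted p = 0.0141) and did not pass with scrambled siRNA (adjusted p = 0.988). Errfi1, whose product inhibits the epidermal growth factor receptor, fell by 0.74 ± 0.102 and 0.40 ± 0.102 (adjusted p = 9.49e-05 and 0.0198). The close relative Spred3 was at 0.12 with Hes3 siRNA and at -0.24 with scrambled siRNA and passed under neither. Cic, which encodes Capicua, rose by 0.29 ± 0.0780 with Hes3 siRNA (adjusted p = 0.011) and was at 0.03 with scrambled siRNA (adjusted p = 0.912).

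Among 16 other genes that respond to ERK, 5 fell and 1 rose with Hes3 siRNA, and 4 fell with scrambled siRNA. Fos, an AP-1 subunit, fell by 0.46 ± 0.102 and 0.64 ± 0.102, and its partner Jun by 0.62 ± 0.0981 and 0.75 ± 0.0981 (log2, SE; limma adjusted p from 0.000151 to 0.0036 over the 4 values). Of 14 other feedback and Ets genes, 7 fell and 2 rose with Hes3 siRNA, and 2 fell and 1 rose with scrambled siRNA. Elk3, an Ets factor that partners serum response factor, fell by 0.65 ± 0.0822 and 0.50 ± 0.0822 (adjusted p = 4.87e-05 and 0.00102).

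Between the siRNA labels in DC, 18 of the 80 rose and 18 fell, beside 28.9% and 18.3% of all genes. Egfr, the epidermal growth factor receptor, fell by 0.46 ± 0.0866 in the arrays labelled Hes3 siRNA (log2, SE; limma adjusted p = 0.00322), and Rps6ka3, an ERK-activated kinase, by 0.57 ± 0.101 (adjusted p = 0.00302). Sos2, which loads Ras with GTP, fell by 0.39 ± 0.0741 (adjusted p = 0.00336), and Rasa1, which switches Ras off, by 0.49 ± 0.109 (adjusted p = 0.00524). Dusp2, the nuclear phosphatase, rose by 0.32 ± 0.0766 (adjusted p = 0.00682) and Spred3 by 0.28 ± 0.0725 (adjusted p = 0.00901). Without DC arrays 1 and 5 labelled Hes3 siRNA 3 of the 80 were called: Egfr, Sos2 and Dusp8, the last named after its value was seen. Over all 19938 genes, 331 were called in that fit, in place of 9408 with all arrays. Egfr (-0.41, adjusted p = 0.0493) and Sos2 (-0.31, adjusted p = 0.0497) then still passed, while Rps6ka3 (-0.37, adjusted p = 0.0517) and Spred3 (0.30, adjusted p = 0.0654) did not.

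**Figure D4:**
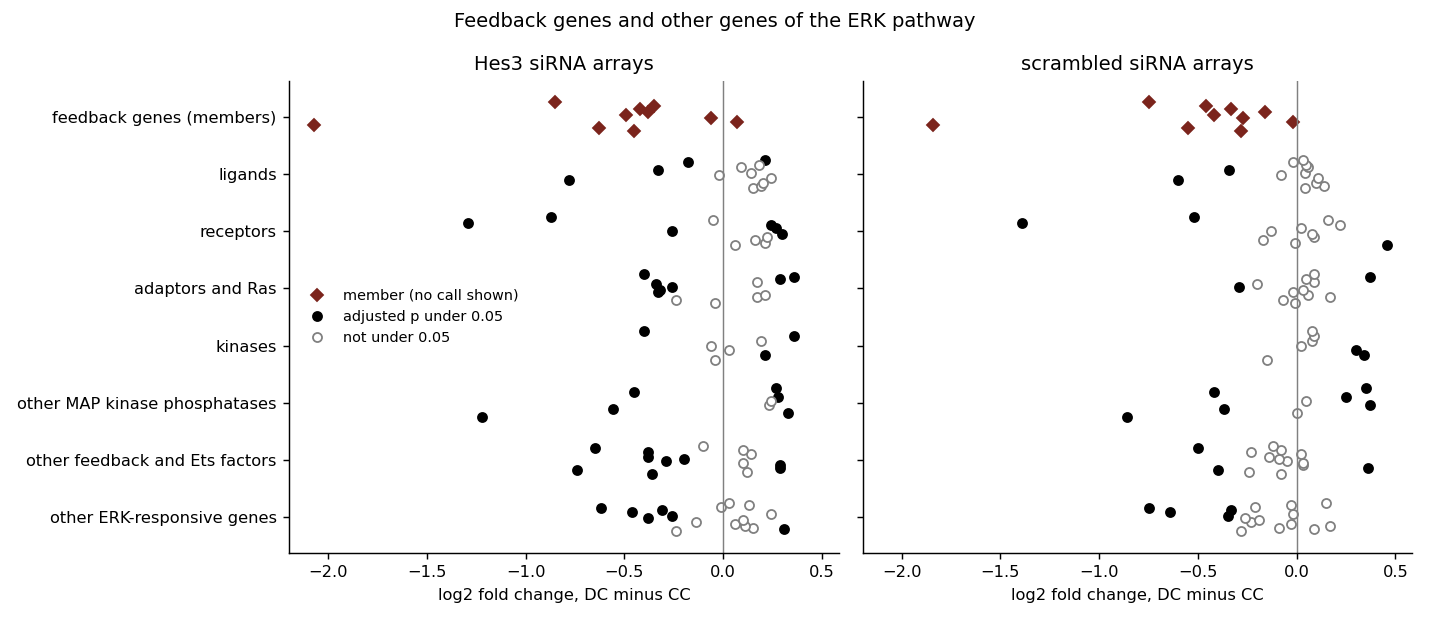
Log2 fold change of DC against CC (horizontal axis) for the 10 feedback genes (diamonds) and for 80 other pathway genes by group (circles, filled where the limma adjusted p is under 0.05), with Hes3 siRNA on the left and scrambled siRNA on the right. Dusp6 lies farthest to the lower side on both, and the other groups hold genes on either side of 0.

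How far the 10 genes moved together from array to array was described by Pearson correlation of their deviations from the group means over the 12 arrays, 45 pairs in all. The median was 0.40, and values ran from -0.68 for Spry1 with Spred1 to 0.91 for Dusp6 with Dusp5, Dusp6 with Etv5 and Spry4 with Etv5. Dusp6, Dusp5, Spry4 and Etv5 were correlated with each other from 0.83 to 0.91. Spred1 and Spred2 gave 0.78, and Spry1 was below 0 with every member but Spry2 (0.47). Correlations of the signals themselves over the 8 DC arrays, without taking out group means, are another measure and had a median of 0.17. Arrays share their hybridization and normalization across all genes, so part of such a correlation can belong to the array.

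Genes whose signal over the 12 arrays was most like that of a member were named by Pearson r, leaving out predicted genes and small RNAs. The 12 arrays fall into 2 cultures, so any gene that differs strongly between them reaches a high r. For Dusp6 they were Fbln5 (r = 0.995), Desi1 (0.987) and Yipf3 (0.986). For Etv5 they were Angpt2 (0.989), Pcolce2 (0.986) and Il4 (0.983), and for Dusp5 Nop56 (0.984), the pathway gene Elk3 (0.975) and Inhba (0.970). Spry4 was nearest to Myo1c (0.976), and Etv4 to Cry1 (0.972). Dusp4 was nearest to Ptgs2 (0.960), Spred1 to Gabarapl1 (0.984) and Spred2 to Clgn (0.964). Spry1 was nearest to Irx3os (0.956) and Metrn (0.950), and Spry2 to Ube2g2 (0.930). Like Dusp6, Fbln5 was lower in DC (log2 fold change -0.94 with Hes3 siRNA and -0.73 with scrambled siRNA), whereas Irx3os, like Spry1, was at 0.09 and -0.04.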

How the data were processed

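RNA of 12 MIN6 cultures (250 ng each) was hybridized to whole-transcript arrays, labelled with the Ambion WT Expression Kit per the labels' protocols. The deposited values lie between 3.94 and 14.4 and were taken as log2 signals from their range. The summarization, normalization and centring behind these values are not given in the sources used here. Array medians were 7.78 to 7.96, and the number of arrays limits the precision. Of 35556 probe sets, 21789 had 1 gene symbol in the platform annotation, 1621 several and 12146 none, and 21698 of the first matched an Entrez ID of the reference table. The brightest probe set stood for each of 999 genes with several.

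limma 3.58.1 in R 4.3.3 fitted 4 group means to all 12 arrays without a block (8 residual degrees of freedom). Tests were two-sided, with Benjamini-Hochberg adjustment over 19938 genes at 0.05, and the fit was tested on simulated data. The members, lists, motifs and tests were chosen with earlier results of these data known. Named genes are the 10 members, Hes3, up to 2 pathway genes of smallest p per group of the list and comparison, up to 3 genes of highest Pearson r per member (fewer are printed for some), and up to 3 markers per list. Alternatives covered normalization, centring, dim genes, variance model, arrays in the fit, probe set rule, array weights, a replicate block, a 1.5-fold minimum and each array left out. Of 89 pathway genes listed, 9 are not analysed here.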

Additional observations from a re-analysis of the deposited data

Results flagged for a closer look

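Single arrays stood off from the other 3 of their group in 3 of 22 groups of 4 arrays examined (10 genes and Hes3, each in both DC groups), by a gap that as a share of the group's range was above Dixon's 95% critical value. Chance alone picks out about 1 group in 20. Dusp5 was at 9.58 in DC array 5 labelled Hes3 siRNA, below 9.84 to 9.88 in the others. Spry2 was at 7.88 in DC scrambled array 1, below 8.10 to 8.14. Hes3 was at 7.25 in DC array 7 labelled Hes3 siRNA, below 7.36 to 7.38.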

How the results depend on the processing

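For the siRNA labels in DC, 1 of the 10 genes passed, beside 9408 of all genes. Over all genes, 5736 passed after quantile normalization, 4297 after cyclic loess and 331 without arrays 1 and 5 labelled Hes3 siRNA together. Of the 10 genes, 0 passed in these 3 fits or with a minimum of 1.5-fold. With a trended robust variance, with only the arrays compared, or with array weights, 2 passed, and leaving out each array in turn gave 0 to 2. For DC against CC a minimum of 1.5-fold left 3 of 8 with Hes3 siRNA and 2 of 5 with scrambled siRNA, and leaving out arrays gave 4 to 8 and 4 to 7. For the siRNA labels in CC and for the interaction the count stayed at 0 under each alternative run, and leaving out arrays gave 0 to 0. The interaction could not be computed with only the arrays compared. Where leaving out an array left 1 in a CC group, that array was assumed to vary like the other groups.

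Of the pathway genes, 36 passed between the siRNA labels in DC, against 23 after quantile normalization, 19 after cyclic loess, 23 with dim genes left out (62 of 80 tested), 3 without arrays 1 and 5, 0 with the 1.5-fold minimum, and 22 to 40 with arrays left out in turn. Between DC and CC with Hes3 siRNA 41 passed, against 24 without arrays 1 and 5, 7 with the 1.5-fold minimum, and 12 to 46 with arrays left out. With scrambled siRNA 22 passed, against 13 with array weights, 5 with the 1.5-fold minimum, and 9 to 23 with arrays left out. Leaving out arrays in CC gave 0 to 0. Hes3 stayed at 0.12 to 0.18 in DC and -0.01 to 0.41 in CC when arrays were left out. After cyclic loess Igf1 turned to -0.01 between the siRNA labels in DC and Igf2 to 0.04 between DC and CC with Hes3 siRNA. With dim genes left out, the median over the 11963 genes that remained was -0.067 between the siRNA labels in DC and -0.051 between the cultures with Hes3 siRNA, against 0.064 and 0.091 over all 19938, since other genes were summarised. The causes of the other changes were not tested.

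Replicate numbers were not used to pair the samples. The correlations that follow rest on arrays 1 and 2 of each group, too few to decide whether the numbers pair samples. In CC, with 2 arrays per group, both values are the same by construction. Deviations of same-numbered arrays correlated at -0.368 and -0.327 between the siRNA labels in DC, 0.253 and 0.253 in CC, -0.109 and 0.073 between the cultures with Hes3 siRNA, and -0.39 and -0.441 with scrambled siRNA. Numbers 3, 4, 5 and 7 each belong to 1 array, so with the replicate number as a block every comparison rested on arrays 1 and 2 only. In that fit, 0 members and 3 pathway genes passed between the siRNA labels in DC, beside 620 of all genes. Between the cultures, 19 and 9 pathway genes passed with Hes3 siRNA and with scrambled siRNA, beside 4051 and 804 of all genes. The block and the loss of arrays cannot be told apart in these counts.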
